A study of Mus musculus with 15 samples.

Results

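Small RNA libraries also hold short pieces that read like messenger RNA. In the 15 libraries described here, an insert was taken as such a piece when it had 22 bases or more, matched a nuclear protein-coding transcript over its full length in sense, and matched no miRNA hairpin, rRNA, mitochondrial, snoRNA, snRNA or misc_RNA transcript. Of 382738 distinct inserts of that length, 28633 met these terms, with 87154 of the 6892924 reads (1.26%). Among them 25537 inserts hit a single protein-coding gene, and their 72498 reads fell on 7806 genes. The 84 genes with 30 or more reads over all libraries are the members described below, and they held 48261 reads, 66.6% of the reads on single genes. The members were thus chosen by their read total over all libraries, which is given as a description only. The other 7722 genes shared 24237 reads, and 3070 genes had 1 read. Genes just inside the limit, with 30 reads, include Amotl1, Ddb1, Ier2, Morf4l2, Rpl13 and Rps7, and genes just outside it, with 29, include Ncl, Gnas, Rps20, Anp32b, Cald1 and Olfr1120.

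The series was made to look for miRNAs that regulate the progesterone receptor, both in lines with Her2 and in the particles they release. It holds 5 groups of 3 libraries. TUBO exosomes were taken from the medium of TUBO cultures, and TUBO supernatant is what remained of that medium after exosome isolation. TUBO cells are a mammary carcinoma line from primary tumours of Balb-NeuT mice, a strain with a Neu (Her2) transgene. MM3MG-Her2 cells are MM3MG transduced with pLSXN-Neu retroviral particles. MM3MG is a normal mammary epithelial line of the BALB/c strain and carries no such vector. All lines grew in DMEM with 10% FCS and had no treatment. Adapters were ligated to total RNA, the product was amplified, and a gel band of miRNA size was cut, so every insert comes from a narrow length range. The labels do not say whether replicates were separate cultures, so a p-value measures only the spread between these libraries, which may be technical.

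Messenger RNA is cut down to short pieces by decay enzymes, and a library that ligates adapters to any short RNA samples such pieces beside miRNAs. Exosomes are small vesicles of endosomal origin that carry RNA and protein out of the cell. Her2, encoded by Erbb2, is a receptor tyrosine kinase whose excess drives mammary tumours in mouse and human. Repeats and copies of structured RNA also lie within the untranslated ends of protein-coding genes, so an exact match to an mRNA does not by itself show that the insert was cut from one.

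The leading inserts, the most read sequence of each member, show how unlike the members are. Coordinates are on GRCm38, strands are those of the gene, and the letters are those of the deposited reads. The first set gives leading inserts with a full or near match to a transcript of another gene, with 13746 down to 4 reads. The Tmem38b insert (chr4:53860745-53860771, plus strand, 3' UTR) had 13746 reads, and its capitals mark the 26 of 27 letters it shares with n-R5s194, a 5S rRNA gene. The Lars2 insert (chr9:123462055-123462076, plus strand, 3' UTR) had 1209 reads and also lies in transcripts of AA474408 and Gm15564. The D10Wsu102e insert (chr10:83422945-83422967, plus strand, 3' UTR) had 1204 reads and occurs in transcripts of 56 other genes. The Spag16 insert (chr1:69924371-69924392, plus strand, 3' UTR) had 110 reads and occurs in 37 other genes. The Ccnb1ip1 insert (chr14:50807696-50807719, minus strand, 5' UTR) had 4 reads, and all 24 of its letters lie in Rpph1, the RNA of ribonuclease P.
Tmem38b: CCTGGGAATACCGGGTGCTGTAGGCTt
Lars2: ccaagcgttggattgttcaccc
D10Wsu102e: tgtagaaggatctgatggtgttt
Spag16: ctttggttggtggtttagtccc
Ccnb1ip1: TTCGGCCCCTGGGAAGGTCTGAGA

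The second set comes from 3 olfactory receptor genes, whose leading inserts share a run of 16 letters, given in capitals. They lie in the annotated 3' UTRs at chr2:89654806-89654829 (minus strand), chr9:19171178-19171203 (minus strand) and chr9:40076154-40076179 (plus strand), with 35, 35 and 44 reads.
Olfr1250: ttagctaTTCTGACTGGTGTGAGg
Olfr839-ps1: tcttagccgTTCTGACTGGTGTGAGg
Olfr982: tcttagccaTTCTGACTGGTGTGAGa

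The third set shows members whose reads changed between groups and whose leading inserts matched no transcript of another gene. The Khsrp insert (chr17:57025050-57025073, minus strand, CDS) had 52 reads. Those of Ppp1r15a (chr7:45526202-45526224, minus strand, 5' UTR, 45 reads) and Mettl26 (chr17:25875088-25875116, plus strand, 5' UTR, 37 reads) lie close to the transcript start. The Mettl26 insert begins at the first base of n-TGccc7, a glycine tRNA gene that RefSeq places at chr17:25875088-25875158 and that was not among the transcripts matched. Those of Erbb2 (chr11:98427383-98427404, plus strand, CDS, 3 reads) and Fn1 (chr1:71615435-71615456, minus strand, CDS, 6 reads) are the most read of many different pieces of those genes.
Khsrp: ctgtgagatggtgatggacatcct
Ppp1r15a: agattgagtcagctctgagtttg
Mettl26: gcgccgctggtgtagtggtatcatgcaag
Erbb2: ccttgggaccagctcttccgga
Fn1: tttgagaacctgaatcctggcc

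The data went against the name mRNA fragment for most reads. The 84 members fell into 4 kinds, drawn up after their values had been seen and given as a description. In 4 genes (Tmem38b, Dennd5b, Slc35d2 and Ccnb1ip1) at least 50% of the reads lay within 2 differences of an annotated structured RNA, among 6112 such transcripts. Those genes held 31420 reads, 65.1% of the members' reads, from 72 distinct inserts. In 20 further genes at least 50% of the reads also matched, on either strand, a transcript of a gene at another place. These had 12801 reads (26.5%), with Lars2 alone at 9302. Matches to pseudogenes were not counted for this kind, so genes of the other kinds may have them. In 18 genes at least 50% of the reads fell in a window of 60 bases, with 1747 reads (3.62%). One of these is Mettl26, for which 166 of 168 reads overlap the tRNA gene n-TGccc7, and no other member has an insert placed on any of the 430 tRNA genes in the RefSeq list (positions only, since no strand is given there). Copies of tRNA elsewhere were not compared by sequence. The remaining 42 genes had reads spread along the transcript, 2293 in all (4.75%), from 1825 distinct inserts. Tmem38b and Lars2 together made 84.1% of the members' reads.

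Inserts that cross an exon junction can come only from spliced RNA or its copies. In the spread genes 9.86% of distinct inserts crossed an exon junction, against 8.28% if inserts had been placed evenly, and 34 of 42 genes had at least 1 such insert. The genes under 30 reads had 8.01% against 7.40%. In the genes with reads in a short stretch it was 5.71% against 8.60%, in the genes with other loci 0.425% against 9.28%, and in those near structured RNA 0% of 72 inserts against 8.10%. By place, 69.0% of the spread genes' inserts lay in the coding sequence, which makes up 67.7% of their transcript bases, and 23.5% lay in the 3' UTR, which makes up 26.7%. In the genes with other loci, 93.8% of inserts lay in the 3' UTR. The spread genes had a median of 34.5 distinct inserts over a median of 543.5 covered bases. In the genes with reads in a short stretch the median was 140.5 covered bases.

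**Figure D1:**
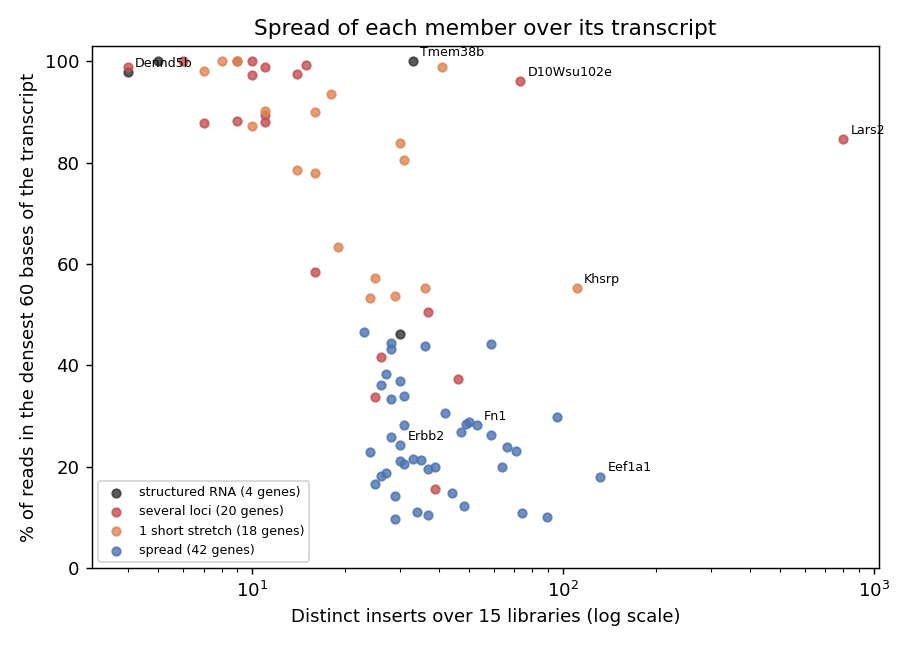
Each point is a member, with its distinct inserts over the 15 libraries on a logarithmic horizontal axis and the percentage of its reads in its densest 60 bases on the vertical axis, coloured by the 4 kinds. Tmem38b and Lars2 lie high with 33 and 798 distinct inserts, and all 42 spread genes, Eef1a1, Fn1 and Erbb2 among them, lie below 50%.

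The share of all reads that matched protein-coding transcripts was highest in exosomes. It was 2.12%, 2.05% and 2.09% in the 3 exosome libraries. In supernatant it was 0.822%, 0.802% and 0.672%, and in TUBO cells 1.11%, 1.17% and 1.19%. It was 1.18%, 1.12% and 1.03% in MM3MG-Her2 cells, against 1.46%, 0.771% and 0.684% in MM3MG cells. The exosome libraries lay above every other library, the supernatant libraries lay below the TUBO cell libraries, and MM3MG replicate 1 stood apart from the other MM3MG libraries. The means were 2.09% ± 0.0351 in exosomes, 0.765% ± 0.0816 in supernatant, 1.16% ± 0.0410 in TUBO cells, 1.11% ± 0.0740 in MM3MG-Her2 and 0.970% ± 0.423 in MM3MG (SD, n = 3 each). Differences were compared with an exact two-sided permutation test, whose smallest possible p with 3 libraries a group is 0.1. Exosomes exceeded cells by 0.932 percentage points (exact permutation p = 0.1) and supernatant by 1.32 points (p = 0.1 by the same exact test). Supernatant minus cells was -0.390 points (exact p = 0.1). MM3MG-Her2 minus MM3MG was 0.141 points (exact p = 0.6), which became -0.0019 points without MM3MG replicate 3. TUBO cells minus MM3MG was 0.185 points (exact p = 0.4), with values between 0.0418 and 0.428 when a library was left out.

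Those shares rest to a large part on Tmem38b and Lars2. Without these genes, a choice made after the values had been seen, the share was 1.70% ± 0.186 in exosomes, 0.650% ± 0.105 in supernatant, 0.462% ± 0.0285 in TUBO cells, 0.347% ± 0.0499 in MM3MG-Her2 and 0.234% ± 0.0301 in MM3MG (SD, n = 3 each). Supernatant then lay above cells by 0.188 points, with no overlap between the libraries, and each other difference kept its sign (exact p = 0.1 for each of the 5). Counting only inserts of 26 bases or longer, exosomes lay below cells by 0.234 points, since 0.392% ± 0.176 of exosome reads and 0.627% ± 0.0418 of TUBO cell reads were then left. Leaving out inserts found in other genes also put exosomes lower, with a difference of -0.208 points. With each distinct insert counted once the difference was -0.384 points, and the groups overlapped.

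**Figure D2:**
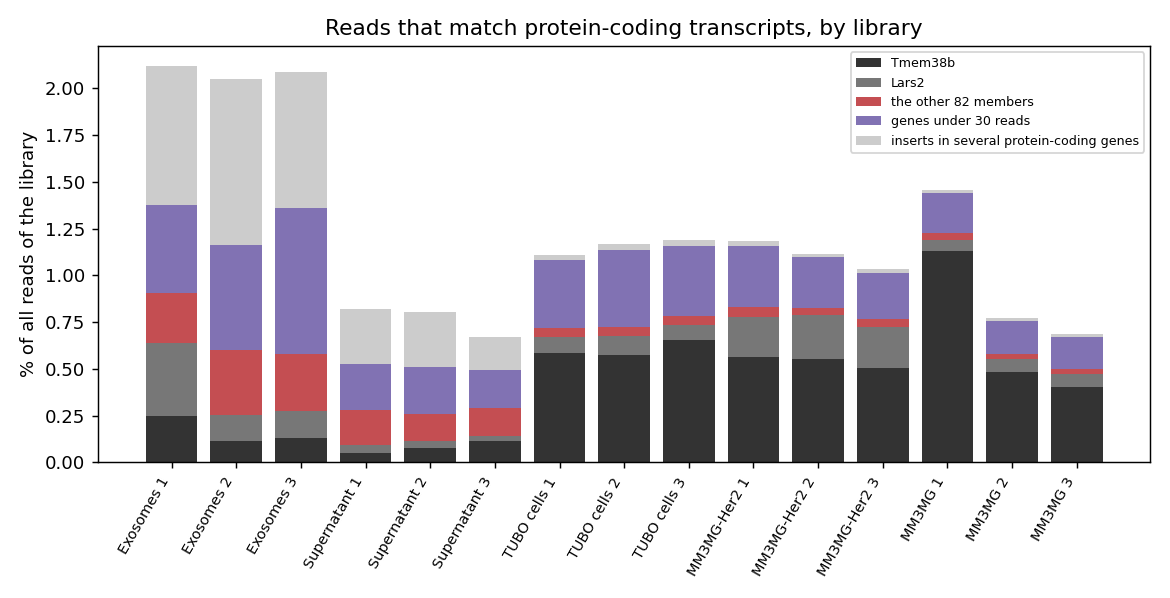
Stacked bars give the percentage of all reads of each library that match protein-coding transcripts, split into Tmem38b, Lars2, the other 82 members, genes under 30 reads, and inserts in several protein-coding genes. Bars reach 2.05% to 2.12% in exosomes and 1.46% in MM3MG replicate 1, where Tmem38b makes up most of the bar.

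Most mRNA-matching reads on single genes lay in annotated 3' UTRs in every group but supernatant. Inserts in several protein-coding genes have no part in these shares, and what is left out differs by group. Single-gene reads were on average 6588 of 10526 mRNA-matching reads in exosomes and 1178 of 1762 in supernatant. They were 7077 of 7278 in TUBO cells, 4679 of 4773 in MM3MG-Her2 and 4644 of 4713 in MM3MG. The 3' UTR share was 76.4%, 67.2% and 54.5% in exosomes, 48.0%, 51.0% and 48.7% in supernatant, and 72.2%, 70.2% and 72.6% in TUBO cells. It was 75.6%, 78.9% and 79.2% in MM3MG-Her2 cells, against 87.6%, 81.4% and 79.8% in MM3MG cells. Supernatant libraries were the lowest, and exosome libraries ranged over both sides of the cell libraries. The difference was -22.5 points for supernatant minus cells (exact permutation p = 0.1), 16.8 points for exosomes minus supernatant (exact p = 0.1) and -5.62 points for exosomes minus cells (exact p = 0.6), which became 0.152 without exosomes replicate 3. It was -5.05 points for MM3MG-Her2 minus MM3MG and -11.3 points for TUBO cells minus MM3MG (exact p = 0.1 each). Without Tmem38b and Lars2 the share was 52.4% ± 8.14 in exosomes, 33.9% ± 5.11 in supernatant and 25.9% ± 0.843 in TUBO cells, so that both differences from cells turned positive, 26.5 and 7.996 points.

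Depth ran from 196152 reads in supernatant replicate 2 to 710902 in TUBO cells replicate 3, and the members counted between 502 and 5572 reads a library. Below, CPM means a gene's reads scaled to 1000000 reads of a library. A fold against a group with 0 reads is a lower bound against 3 reads over that group, and a ratio with 1 to 3 reads in a group has its 95% counting interval. Copies made by PCR were not marked by identifiers, so these bounds and intervals cover counting error only. In bulk libraries, fewer cells with a transcript and less RNA per cell cannot be told apart. The lines' own markers differed. Of 6 luminal markers, 50 reads (33.9 CPM ± 12.8) came from exosomes, 10 from supernatant, 50 from TUBO cells (26.6 CPM ± 5.86) and 0 from MM3MG-Her2 and MM3MG. Of 6 mesenchymal markers, 2 reads came from exosomes, 1 from supernatant, 3 from TUBO cells, 81 from MM3MG-Her2 (64.5 CPM ± 10.2) and 66 from MM3MG (43.0 CPM ± 8.65). Krt8, Krt18, Krt19, Krt7, Epcam and Cdh1 were at 0 in both lines labelled as mammary epithelial, so these reads did not show that label. The basal, blood and serum, and immune marker lists had 0 reads in every library.

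**Figure D3:**
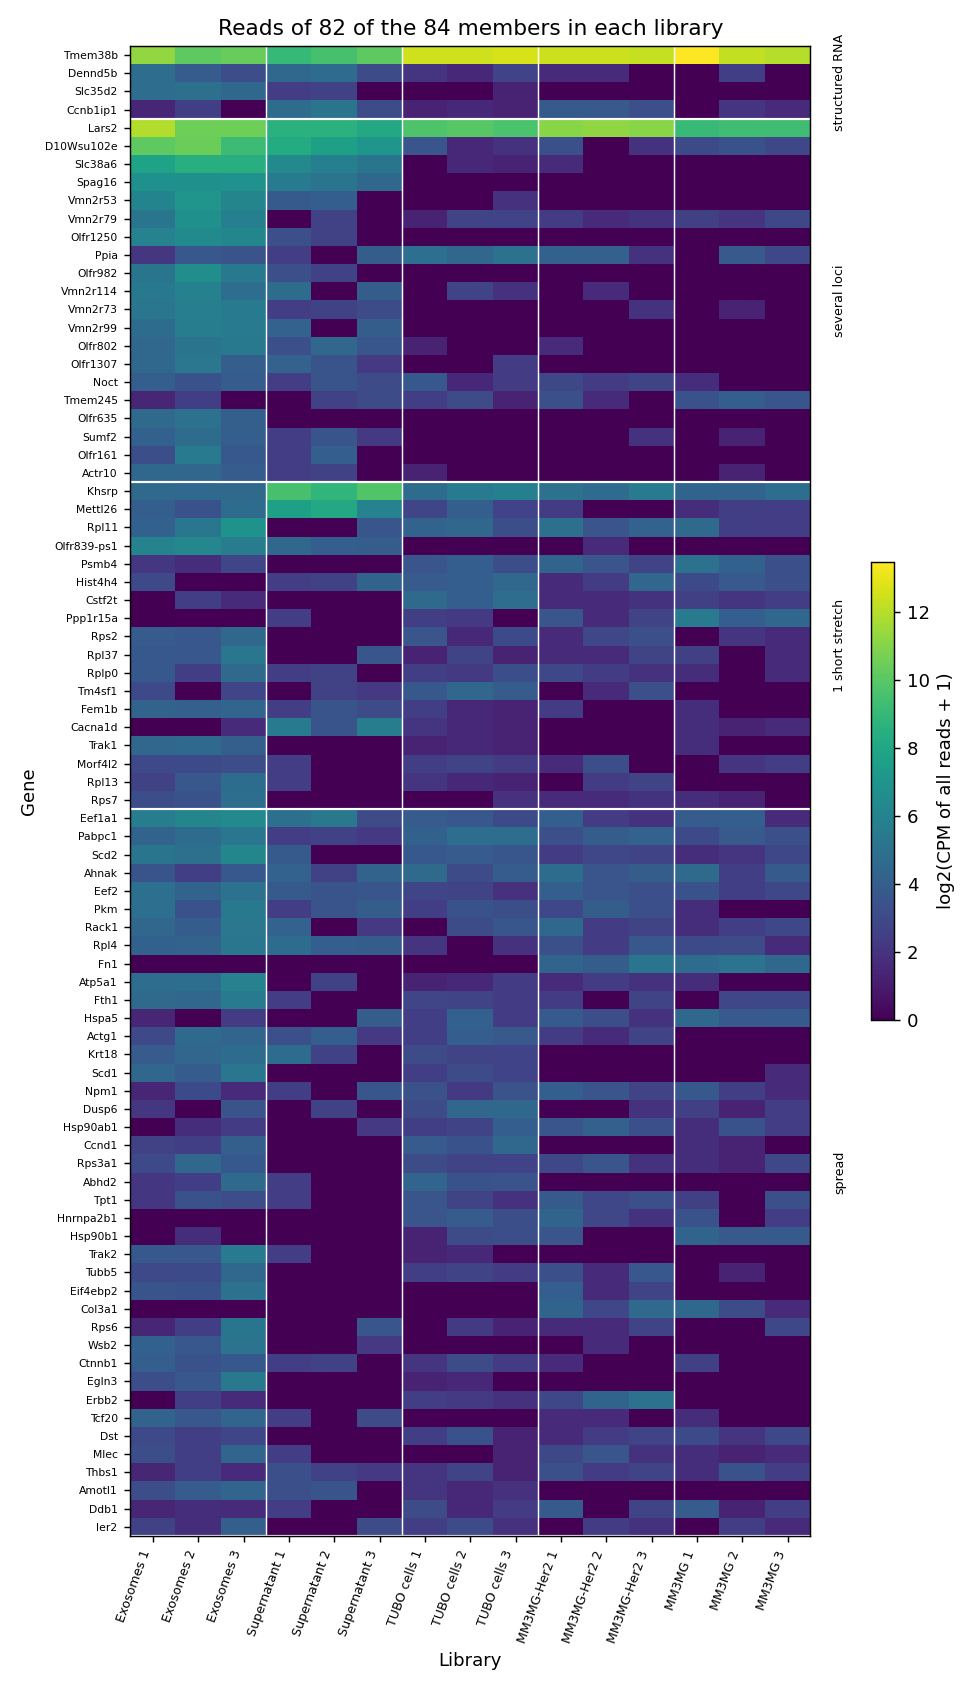
Reads of 82 of the 84 members in each library, as log2(CPM + 1), by kind of gene from top to bottom and by group from left to right, exosomes first and MM3MG last. Genes with other loci such as Spag16 and Slc38a6 are high in exosomes and supernatant and at or near 0 in the cells, while Fn1 and Col3a1 are at 0 in all TUBO libraries.

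MM3MG-Her2 cells differed from MM3MG cells in 3 of the 42 members tested. Erbb2 and Lars2 were higher with the vector and Ppp1r15a, the stress-induced subunit of the phosphatase that acts on eIF2alpha, was lower. The 42 members with 20 or more reads over the 9 cell libraries entered edgeR's quasi-likelihood test, adjusted over all 50 genes in the fit. The other 42 members had too few reads there. Calls at an adjusted p under 0.05 made up 4.0% (higher) and 2.0% (lower) of the 50 genes, or 6.0% in either direction, so the members' count is that of all genes. The median log2 difference was 0.42 over the members tested and 0.39 over all 50. With mRNA-matching reads as library size the split was 2 higher and 2 lower.

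Erbb2 had 6.48, 18.9 and 32.2 CPM in MM3MG-Her2 cells (3, 9 and 11 reads), against 0 CPM in all 3 MM3MG libraries. The groups did not overlap, and no MM3MG library had a read. That is at least 9.07-fold higher in MM3MG-Her2 (edgeR adjusted p = 2.7e-04), though Erbb2 reached 20 reads in the cell libraries only with its 23 MM3MG-Her2 reads. The 20 distinct inserts in MM3MG-Her2 lay between bases 531 and 3946 of the 5012-base transcript. All 30 Erbb2 inserts of the series lay in the coding sequence, and the 1051 bases of the 3' UTR had none. Reads from the vector's Neu and from the mouse gene cannot be told apart where their letters are the same, and inserts were matched to the mouse gene only. Erbb2 was at 0, 4.67 and 2.01 CPM in exosomes, at 0 in supernatant, and at 4.59, 3.81 and 2.81 CPM in TUBO cells. TUBO cells minus MM3MG missed the threshold for this gene (edgeR adjusted p = 0.059). Pgr, the progesterone receptor, and Esr1 had 0 reads in all libraries, where 3 reads would be 1.59 to 4.30 CPM of a group.

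Lars2, the mitochondrial leucyl-tRNA synthetase, had 2166, 2367 and 2178 CPM in MM3MG-Her2, against 556, 651 and 657 CPM in MM3MG. Every MM3MG-Her2 library lay above every MM3MG library, by 1.85 ± 0.23 on the log2 scale (SE, edgeR adjusted p = 4.6e-13). With each distinct insert counted once the call was lost (adjusted p = 0.0853). Of its reads 91.4% lay between bases 3172 and 3417 of a 3894-base transcript, a stretch of its 3' UTR that other genes also hold. They were not compared with 45S rRNA, and whether they come from Lars2 mRNA was not tested. Ppp1r15a had 10.8, 2.10 and 5.86 CPM in MM3MG-Her2, against 45.5, 15.5 and 22.04 CPM in MM3MG, without overlap. The log2 difference was -2.06 ± 0.65 (SE, edgeR adjusted p = 0.0288). Without MM3MG-Her2 replicate 2 or 3, or MM3MG replicate 1 or 3, that call was lost, with adjusted p values up to 0.276. Ppp1r15a also passed the read limit of the fit only with its MM3MG reads, so the call is a description. Of its 53 reads 50 lay between bases 45 and 70 of the 2333-base transcript, in the 5' UTR. Tmem38b, which encodes a cation channel of the endoplasmic reticulum, had 5619, 5524 and 5063 CPM in MM3MG-Her2, against 11315, 4854 and 4047 CPM in MM3MG (edgeR adjusted p = 0.504). Annotated rRNA was likewise 0.572% of reads in MM3MG replicate 1 and 0.206% and 0.192% in the other MM3MG libraries, and its part in the Tmem38b values was not tested.

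TUBO cells differed from MM3MG cells in 13 of the 42 members, 10 higher and 3 lower. The matrix genes Fn1 (fibronectin) and Col3a1 (type III collagen) were lower and had no read in TUBO cells. Cyclin D1 (Ccnd1), the membrane protein gene Tm4sf1, the hydrolase Abhd2 and gamma actin (Actg1) were higher. Of the 50 genes tested, 22% were called higher and 8.0% lower, 30% in all, so the share of the members was close to that of all genes. The median log2 difference was 0.55 over the members and 0.55 over all 50. The split of the members depended on scaling: 5 higher and 3 lower with TMM over mRNA-matching reads, and 3 higher and 3 lower with DESeq2. These scalings moved the median of all genes by -0.47 and -0.41. Of the 10 higher members 8 reached 20 reads in the cell libraries only with the TUBO cell reads, all but Pabpc1 and Ppia, and their calls are a description.

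Fn1 had 0 CPM in the 3 TUBO cell libraries, against 26.3, 34.2 and 22.04 CPM in MM3MG. It also had 0 reads in exosomes and supernatant, and 19.4, 14.7 and 35.2 CPM in MM3MG-Her2. The difference was at least 17.9-fold lower in TUBO cells (edgeR adjusted p = 6.9e-10). Col3a1 had 0 CPM in TUBO cells against 21.6, 7.77 and 2.20 CPM in MM3MG, at least 6.24-fold lower (edgeR adjusted p = 8.5e-04). Ppp1r15a had 4.59, 3.81 and 0 CPM in TUBO cells, against 45.5, 15.5 and 22.04 CPM in MM3MG, again without overlap. It was lower by a log2 difference of -3.22 ± 0.69 (SE, edgeR adjusted p = 1.2e-04). Fn1, Col3a1 and Ppp1r15a were called lower whichever library was left out, and in the 10, 8 and 6 other settings that tested them. Ppp1r15a had 39 reads in MM3MG, 8 in MM3MG-Her2 and 5 in TUBO cells. It passed the read limit of the fit only with the MM3MG reads, so its calls are a description.

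Among the higher genes, Tm4sf1 had 12.2, 20.9 and 14.1 CPM in TUBO cells, and Abhd2 had 19.9, 9.52 and 9.85 CPM. Actg1 had 4.59, 15.2 and 12.7 CPM in TUBO cells. All 3 genes had 0 reads in MM3MG, which put them at least 7.75-fold, 6.68-fold and 5.34-fold higher in TUBO cells (edgeR adjusted p = 2.2e-04, 2.2e-04 and 9.0e-04), and each call held in every setting that tested it. Ccnd1 had 13.8, 9.52 and 22.5 CPM in TUBO cells, against 2.39, 1.55 and 0 CPM in MM3MG, a ratio of 12.02 (3.05 to 103.8, edgeR adjusted p = 0.0040), a call lost with DESeq2 (0.0623). Pkm, the pyruvate kinase of glycolysis, had 4.59, 9.52 and 8.44 CPM in TUBO cells against 2.39, 0 and 0 CPM in MM3MG, and its call (edgeR adjusted p = 0.0452) was lost without TUBO cells replicate 3 or MM3MG replicate 2 or 3 (up to 0.182). Cstf2t rose by 2.42 ± 0.70, Dusp6 by 2.26 ± 0.81 and Ppia by 1.92 ± 0.55 on the log2 scale (edgeR adjusted p = 0.0033, 0.0223 and 0.0033). The Cstf2t call was lost with DESeq2 and with a limit of 5 reads (up to 0.0979). That of Dusp6 was lost without TUBO cells or MM3MG replicate 2 or 3 (up to 0.158), and that of Ppia without TUBO cells replicate 1 or 3 or MM3MG replicate 3 (up to 0.0751), both also with TMM and DESeq2. Pabpc1, the poly(A)-binding protein, was higher by 1.30 ± 0.53 (edgeR adjusted p = 0.0479), a call lost without 5 of the 6 libraries in turn, all but TUBO cells replicate 1 (up to 0.203). The tenth gene, Noct, had 12.2, 1.90 and 4.22 CPM in TUBO cells against 2.39, 0 and 0 CPM in MM3MG, which overlap, and it lost its call without any of 4 libraries in turn (up to 0.234).

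TUBO exosomes had more reads of most members than TUBO cells. Of 74 members tested, 45 were higher and 8 lower. In the fit of the 9 TUBO libraries 62.4% of 101 genes were called higher and 9.9% lower, 72.3% in all, so the members' share is near that of all genes tested. Both shares depend on the read limits. Of the 74 members tested, 49 reached 20 reads in the TUBO libraries only with the exosome reads, among them 36 of the 45 higher and 1 of the 8 lower. Without exosome reads 36 of the 84 members would have had 30 reads. A gene that passes a limit through the group in which it is high had to differ, so calls of such genes are a description here. Together the genes under 30 reads had 4700, 5591 and 7765 CPM in exosomes, against 3632, 4081 and 3721 CPM in TUBO cells. That is 1.58 times as much in the mean, with no overlap. The median log2 difference was 2.21 over the members and 2.49 over all 101. TMM over mRNA-matching reads moved the median of all genes by -1.52 and gave 28 higher and 16 lower members. DESeq2 moved it by -1.62 and gave 20 and 15.

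By kind, 17 of the 19 tested genes with other loci were higher in exosomes and 1 was lower. D10Wsu102e had 1133, 1366 and 599.9 CPM in exosomes, against 10.7, 1.90 and 2.81 CPM in TUBO cells. The log2 difference was 7.55 ± 0.63 (SE, edgeR adjusted p = 2.0e-27), and the call was lost when inserts in other genes were left out (0.135). Slc38a6, of an amino acid transporter family, had 226, 364 and 341 CPM in exosomes, against 0, 1.90 and 1.41 CPM in cells, a ratio of 287 (78.9 to 2374). Spag16, a gene of the sperm axoneme, had 106, 107 and 110 CPM in exosomes (62, 46 and 55 reads) and 0 CPM in all cell libraries, at least 68.0-fold higher. Spag16 also had 43.9, 35.7 and 21.9 CPM in supernatant and 0 in MM3MG-Her2 and MM3MG, so no cell library of any line had a read of it.

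Of the members 12 are olfactory (7) or vomeronasal (5) receptor genes, which sensory neurons use to detect odours and pheromones. Olfr1250 had 61.7, 84.05 and 72.2 CPM in exosomes, against 0 CPM in the cell libraries, at least 45.1-fold higher. Olfr839-ps1 had 65.1, 74.7 and 52.2 CPM in exosomes and Olfr982 had 36.0, 98.1 and 42.1 CPM, both with 0 reads in cells, at least 40.05-fold and 35.0-fold higher. Of the TUBO reads of Olfr1250, Olfr839-ps1 and Olfr982, 108 of 111, 96 of 108 and 84 of 87 came from exosomes, so these genes passed the limits through exosomes and get no test. Together the 12 genes had 447, 808 and 496 CPM in exosomes and 132, 96.9 and 65.8 CPM in supernatant. They had 3.06, 11.4 and 15.5 CPM in TUBO cells, 6.48, 6.31 and 5.86 CPM in MM3MG-Her2 and 4.79, 4.66 and 6.61 CPM in MM3MG. The shared run TTCTGACTGGTGTGAG was then searched in all inserts on both strands. It stood in 497 distinct inserts in the forward direction and 0 in reverse. They had 5534, 6455 and 3925 CPM in exosomes, against 19.9, 3.81 and 25.3 CPM in TUBO cells. The run occurs on either strand in annotated transcripts of 107 of 55450 genes (0.193%) and in 0 of 32851 promoters of 300 bases (RefSeq). A match is a description, and no repeat annotation was used here.

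Among the 34 tested genes spread along the transcript, 19 were higher in exosomes and 3 were lower, a share of higher calls below that of all genes tested. Fth1, the ferritin heavy chain, had 24.0, 21.01 and 48.2 CPM in exosomes, against 6.12, 5.71 and 4.22 CPM in cells (2.49 ± 0.65, edgeR adjusted p = 3.5e-04). Eef1a1, the elongation factor that brings tRNA to the ribosome, had 51.4, 70.04 and 86.3 CPM in exosomes, against 13.8, 11.4 and 7.03 CPM in cells (2.66 ± 0.66, edgeR adjusted p = 1.5e-04). Both calls were lost with TMM and with DESeq2, that of Fth1 also with distinct inserts counted once (up to 0.477) and that of Eef1a1 also with inserts of 26 bases or longer (up to 0.220). Eif4ebp2, a brake on translation initiation, had 10.3, 9.34 and 32.1 CPM in exosomes and 0 CPM in cells, at least 10.8-fold higher (edgeR adjusted p = 5.5e-06). Krt18, the luminal keratin, had 13.7, 21.01 and 26.1 CPM in exosomes, against 7.65, 5.71 and 5.63 CPM in cells. Its log2 difference was 1.62 ± 0.67 (edgeR adjusted p = 0.0230) but -0.059 with DESeq2, and the call was lost without exosomes or TUBO cells replicate 2 or 3 (up to 0.0805). Of the 2 luminal markers tested, Krt18 was higher and Krt8, not a member, was lower, with 4 reads in exosomes against 21 in cells. Their median log2 difference was -0.16. Exosome replicate 3 had the highest value for Fth1, Eef1a1, Eif4ebp2 and Krt18. Fth1, Eif4ebp2 and Krt18 passed the read limit of the fit only with the exosome reads, so their calls are a description. Krt8 passed that limit only with the TUBO cell reads, and its call is likewise a description. The spread genes summed to 707 CPM ± 337 in exosomes and 258 CPM ± 15.5 in TUBO cells (SD, n = 3 each).

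Genes of the ribosome and of translation moved with the rest. Of 86 ribosomal protein genes 78 had reads and 16 were tested. In exosomes 10 of these were higher and 0 lower, with a median log2 difference of 2.70 beside 2.49 over all genes. Their summed level was 468 CPM ± 268 in exosomes (293 to 776), 116 ± 28.03 in supernatant, 132 ± 13.6 in TUBO cells, 165 ± 36.5 in MM3MG-Her2 and 93.1 ± 23.2 in MM3MG. Rpl4 had 17.1, 18.7 and 38.1 CPM in exosomes, against 3.06, 0 and 2.81 CPM in cells (3.39 ± 0.76, edgeR adjusted p = 3.2e-05), a call lost with DESeq2 (0.132). Rpl11 had 17.1, 37.4 and 114 CPM in exosomes, against 18.4, 20.9 and 8.44 CPM in cells, which overlap. Its call (edgeR adjusted p = 0.0058) was lost without exosomes replicate 3 or TUBO cells replicate 3 (up to 0.316), and 145 of its 155 reads came from bases 324 to 360 of the transcript. Rpl13 lost its call without exosomes replicate 3 (adjusted p = 0.0671). Of 13 translation factors 3 of the 5 tested were higher and 0 lower (Eef1a1, Eef2 and Eif3a), and Eef2 lost its call with TMM and DESeq2 (up to 0.504). Rpl4, Rpl13 and Eef2 reached 20 reads in the TUBO libraries only with the exosome reads, so their calls are a description. The list of 16 exosome and endosome proteins had reads in 15 genes but no member and no gene with enough reads for the test, with 15.6 CPM ± 6.37 in exosomes and 17.8 ± 9.11 in TUBO cells. The 10 glycolysis genes, 8 with reads, summed to 69.7 CPM ± 32.6 in exosomes and 21.5 ± 5.74 in TUBO cells, and Pkm was higher in exosomes, a call lost without exosomes replicate 3 (adjusted p = 0.0610). The 14 chaperones, 13 with reads, summed to 26.9 CPM ± 20.4 in exosomes and 49.0 ± 15.6 in cells. The 21 cytoskeleton genes, 19 with reads, summed to 56.7 CPM ± 18.9 in exosomes and 38.2 ± 10.1 in cells, with 0 of 2 tested genes called. The 7 iron storage and selenoprotein genes summed to 36.4 CPM ± 17.1 in exosomes and 9.39 ± 1.60 in cells. Of 6 milk protein genes 1 had reads, 4 in exosomes and 10 in TUBO cells.

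The 8 lower members were Tmem38b and 7 others. Those 7 reached 20 reads in the TUBO libraries only with the TUBO cell reads, so their calls are a description. Tmem38b had 2493, 1118 and 1288 CPM in exosomes, against 5844, 5763 and 6533 CPM in TUBO cells, without overlap. It fell by 1.89 on the log2 scale (SE 0.44, edgeR adjusted p = 5.8e-05). Its mean insert length together with the 3 other genes near structured RNA was 24.0 bases in exosomes and 26.6 bases in TUBO cells. Hnrnpa2b1, an RNA-binding protein of pre-mRNA, had 0 CPM in exosomes, against 10.7, 13.3 and 8.44 CPM in cells, at least 5.33-fold lower (edgeR adjusted p = 2.0e-04). Cstf2t, a cleavage factor of mRNA 3' ends, had 0, 4.67 and 2.01 CPM in exosomes, against 24.5, 15.2 and 26.7 CPM in cells, a ratio of 0.0873 (0.0173 to 0.273). Hist4h4, a histone H4 gene, had 6.85, 0 and 0 CPM in exosomes, against 13.8, 15.2 and 21.1 CPM in cells (-2.58 ± 0.83, edgeR adjusted p = 0.0038). The 67 replication-dependent histone genes, 33 of them with reads, summed to 8.78 CPM ± 8.13 in exosomes and 49.9 CPM ± 1.34 in TUBO cells, and Hist4h4 was the only 1 with enough reads for the test. The calls of Tmem38b, Hnrnpa2b1, Cstf2t and Hist4h4 held in every setting that tested them, which for the last 3 is a description only. Hsp90ab1, a cytosolic chaperone, had 0, 2.33 and 4.01 CPM in exosomes, against 4.59, 5.71 and 15.5 CPM in cells. Its call (edgeR adjusted p = 0.0465) was lost without exosomes replicate 1 or 2 or TUBO cells replicate 2 or 3 (up to 0.261). The other 3 were Dusp6, Tm4sf1 and Ppia, at log2 differences of -1.82, -1.72 and -1.71, and Tm4sf1 lost its call without exosomes replicate 2 or TUBO cells replicate 2 or 3 (up to 0.167). Dusp6 lost its call without exosomes replicate 1 or 2 or TUBO cells replicate 2 or 3 (up to 0.137), and Ppia without exosomes replicate 1 or TUBO cells replicate 3 (up to 0.119).

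Lars2 had 3865, 1422 and 1435 CPM in exosomes, against 863, 992 and 810 CPM in TUBO cells. The groups did not overlap, and exosomes replicate 1 stood well above the other exosome libraries. The log2 difference was 1.34 ± 0.44 (SE, edgeR adjusted p = 0.0042) with all reads as library size, but -0.034 with TMM, -0.47 with DESeq2 and -0.68 with distinct inserts counted once. Without exosomes replicate 1 it was 0.69 (adjusted p = 0.0958).

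TUBO supernatant had more reads than TUBO cells of Khsrp, an RNA-binding protein of mRNA decay and miRNA maturation, of the tRNA-overlapping Mettl26 stretch, and of members with other loci such as D10Wsu102e and Spag16. Of 74 members 20 were higher and 12 lower than in cells, beside 22.8% and 12.9% of all 101 genes (35.6% in all). The median log2 difference was 0.09 over the members and 0.19 over all genes. With DESeq2 the members split into 9 higher and 17 lower, and with mRNA-matching reads as library size into 24 and 3. These scalings moved the median of all genes by -0.74 and 1.11.

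Khsrp had 746, 459 and 881 CPM in supernatant (170, 90 and 241 reads), against 25.999, 45.7 and 54.9 CPM in TUBO cells. It was higher by 4.04 ± 0.52 on the log2 scale (SE, edgeR adjusted p = 1.6e-12). The supernatant libraries also lay above every exosome, MM3MG-Her2 and MM3MG library, which ranged from 18.7 to 44.0 CPM. Of its 692 reads, 304 lay between bases 969 and 1001 and 382 between bases 1101 and 1145 of the 3978-base transcript, with 223 and 278 of these from supernatant. Mettl26, with its reads on the tRNA gene named above, had 202, 280 and 62.1 CPM in supernatant, against 6.12, 15.2 and 5.63 CPM in cells (4.33 ± 0.61, edgeR adjusted p = 1.3e-10), and 166 of its 168 reads lay between bases 13 and 94. The Mettl26 call was lost with distinct inserts counted once (adjusted p = 0.202). Cacna1d, a calcium channel subunit, had 43.9, 10.2 and 51.2 CPM in supernatant, against 3.06, 1.90 and 1.41 CPM in cells (3.92 ± 0.82, edgeR adjusted p = 3.6e-05). Its 34 reads all came from bases 1 to 28 of the transcript, and its leading insert is mostly a repeat of the letters tga. The Khsrp and Cacna1d calls held in every setting that tested them. Cacna1d had 26 reads in supernatant, 4 in TUBO cells and 1 in exosomes. It passed the read limit of the fit only with the supernatant reads, so its calls are a description.

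**Figure D4:**
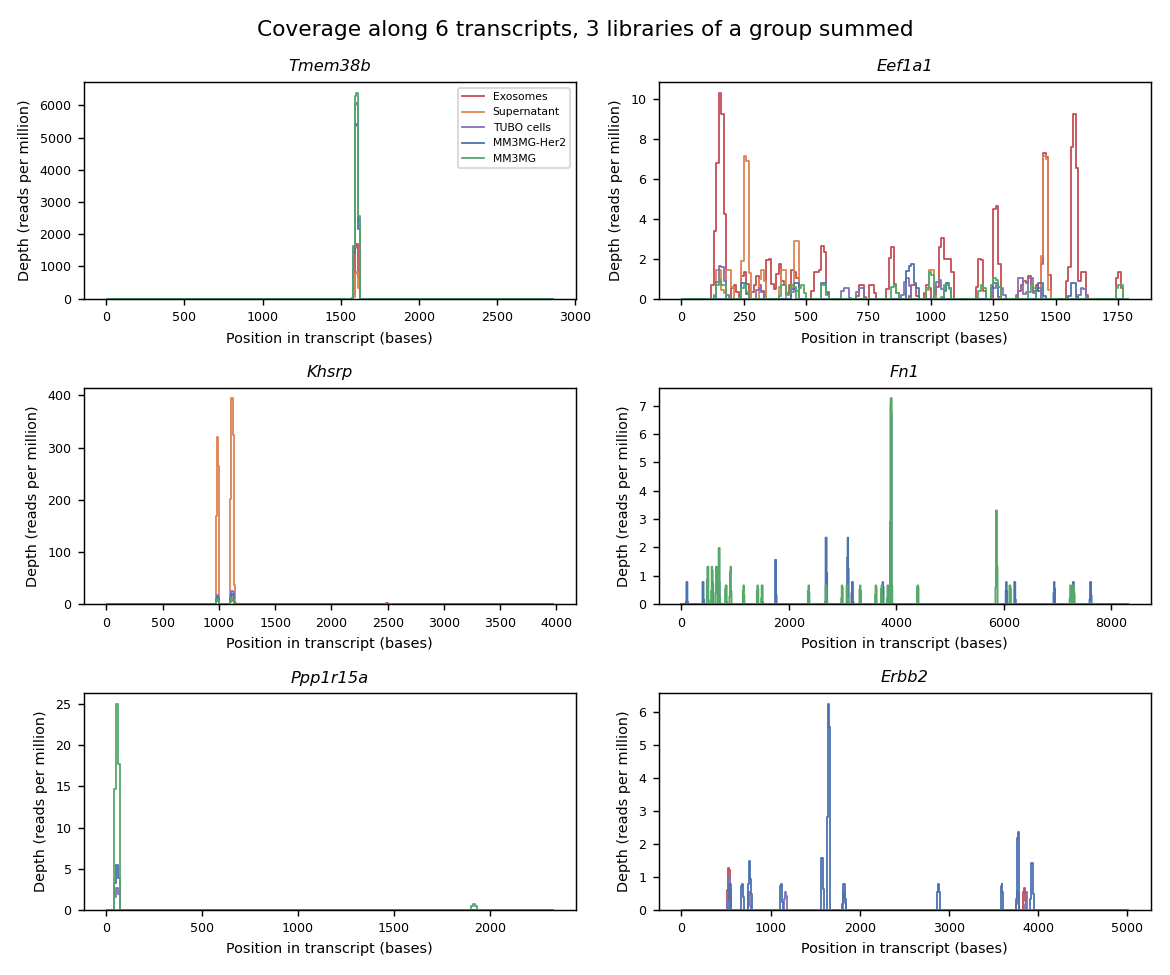
Read depth along the transcripts of 6 members, in reads scaled to 1000000 with the 3 libraries of a group summed, against position in bases from the transcript start. Tmem38b, Khsrp and Ppp1r15a have their reads in short stretches, with MM3MG highest for Tmem38b and Ppp1r15a and supernatant for Khsrp, while Eef1a1, Fn1 and Erbb2 have reads at many places.

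Inserts with other loci were also higher in supernatant than in cells, 12 of 19 tested against 2 lower. D10Wsu102e had 311, 204 and 128 CPM in supernatant, against 10.7, 1.90 and 2.81 CPM in cells (5.28 ± 0.61, edgeR adjusted p = 4.9e-15), a call lost with inserts of 26 bases or longer, with inserts in other genes left out and with distinct inserts counted once (up to 0.738). Slc38a6 had 78.9, 56.1 and 36.6 CPM in supernatant, against 0, 1.90 and 1.41 CPM in cells, a ratio of 52.8 (13.7 to 452). Spag16 was at least 20.8-fold higher, with 23 reads in supernatant and 0 in cells. Olfr839-ps1, which belongs to the genes with reads in a short stretch, was at least 10.8-fold higher, with 12 reads against 0. These 3 calls held in every setting that tested them, whereas those of Olfr1250 and Olfr982 (3 reads each in supernatant, 0 in cells) were lost without any of 5 of the 6 libraries (up to 0.233), all but supernatant replicate 3. Sumf2, with 4.39, 10.2 and 3.66 CPM in supernatant and 0 in cells, lost its call without supernatant replicate 2 or TUBO cells replicate 1 or 3 (up to 0.0759).

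Of the genes spread along the transcript 2 of 34 were higher in supernatant, 6 were lower and 26 were not called, beside 12.9% lower over all 101 genes. The higher ones were Rpl4 and Tcf20, and Tcf20 had 3 reads in supernatant and 0 in cells, in libraries that overlap. Rpl4 had 26.3, 15.3 and 14.6 CPM in supernatant, against 3.06, 0 and 2.81 CPM in cells (3.00 ± 0.86, edgeR adjusted p = 0.0039), a call lost with DESeq2, with a limit of 5 reads and with distinct inserts counted once (up to 0.424). Ccnd1 had 0 CPM in supernatant, against 13.8, 9.52 and 22.5 CPM in cells, at least 3.69-fold lower (edgeR adjusted p = 0.0035). Hnrnpa2b1 had 0 CPM in supernatant as in exosomes, at least 2.46-fold lower than cells, but its call (edgeR adjusted p = 0.0161) was lost without supernatant replicate 2 or 3 (up to 0.0660). Outside the spread genes, Cstf2t had 0 CPM in supernatant, at least 5.29-fold lower (edgeR adjusted p = 6.6e-04). Psmb4, a proteasome subunit, was at least 2.58-fold lower (0 reads against 21), and lost its call without supernatant replicate 1 or 2 (up to 0.0558). Pabpc1 was lower at a ratio of 0.177 (0.0351 to 0.550), and lost its call without 5 of the 6 libraries, all but TUBO cells replicate 1 (up to 0.0819). Rps2 was at least 1.60-fold lower and lost its call without 5 of the 6, all but TUBO cells replicate 2 (up to 0.124). Abhd2 lost its call without supernatant replicate 2 or 3 or TUBO cells replicate 1 or 3 (up to 0.162). Ccnd1, Hnrnpa2b1, Cstf2t, Psmb4 and Abhd2 passed the read limit of the fit only with the TUBO cell reads, so their calls are a description. Tmem38b had 517, 760 and 1137 CPM in supernatant, against 5844, 5763 and 6533 CPM in cells, a fall of 2.91 on the log2 scale (SE 0.46, edgeR adjusted p = 8.7e-09), a call lost with distinct inserts counted once (0.122). Lars2 had 386, 393 and 274 CPM in supernatant, against 863, 992 and 810 CPM in cells (-1.34 ± 0.44, edgeR adjusted p = 0.0161), and lost its call without supernatant replicate 2 or 3 or TUBO cells replicate 2 (up to 0.0704).

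Exosomes against supernatant gave 36 higher and 4 lower members of 74. The 4 lower in exosomes were Khsrp, Mettl26, Cacna1d and Ccnb1ip1. Of the 36 higher, 26 reached 20 reads only with the exosome reads, so their calls are a description. Over all 101 genes 47.5% were called higher in exosomes and 3.96% lower, 51.5% in all, and the median log2 difference was 2.02 over the members and 2.12 over all genes. The counts depended on scaling: with TMM 7 members were higher and 5 lower, with mRNA-matching reads as library size 8 and 5, and with DESeq2 11 and 4. TMM moved the median of all genes by -1.30. This comparison shares its exosome and supernatant libraries with the comparisons against cells.

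Khsrp had 24.0, 23.3 and 24.1 CPM in exosomes, against 746, 459 and 881 CPM in supernatant. It was lower in exosomes by a log2 difference of -4.85 ± 0.55 (SE, edgeR adjusted p = 1.4e-15). Mettl26 had 15.4, 9.34 and 26.1 CPM in exosomes, against 202, 280 and 62.1 CPM in supernatant (-3.37 ± 0.58, edgeR adjusted p = 3.5e-07). Cacna1d had 0, 0 and 2.01 CPM in exosomes, against 43.9, 10.2 and 51.2 CPM in supernatant, a ratio of 0.0178 (4.3e-04 to 0.108). Ccnb1ip1, whose reads all lay near Rpph1, had 1.71, 4.67 and 0 CPM in exosomes, against 26.3, 35.7 and 7.31 CPM in supernatant, a ratio of 0.0924 (0.0171 to 0.327). All 4 calls held in every setting that tested them, and the groups did not overlap. Cacna1d and Ccnb1ip1 passed the read limit of the fit only with the supernatant reads, so their calls are a description.

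Of the spread genes 15 of 34 were higher in exosomes and 0 lower, close to the share over all genes. Scd1, the stearoyl-CoA desaturase, had 20.6, 14.0 and 38.1 CPM in exosomes and 0 CPM in supernatant, at least 5.70-fold higher (edgeR adjusted p = 2.6e-04), a call that held in every setting that tested it. Egln3, a prolyl hydroxylase of the oxygen response, had 8.57, 11.7 and 42.1 CPM in exosomes and 0 CPM in supernatant, at least 4.77-fold higher (edgeR adjusted p = 3.1e-04), and missed the threshold with DESeq2 (0.0618). Fth1 had 24.0, 21.01 and 48.2 CPM in exosomes, against 4.39, 0 and 0 CPM in supernatant, a ratio of 21.7 (3.71 to 876), and lost its call with TMM, DESeq2 and mRNA-matching reads as library size (up to 0.0744). Among 16 ribosomal protein genes 9 were higher in exosomes and 0 lower, but Rpl13 and Rpl37 each lost the call without exosomes replicate 3 or supernatant replicate 2 (up to 0.207). Rpl13 also lost it without supernatant replicate 3 and Rpl37 without supernatant replicate 1. Scd1, Egln3, Fth1, Rpl13 and Rpl37 reached 20 reads in the TUBO libraries only with the exosome reads, so their calls are a description. Ccnd1 lost its call without exosomes replicate 3 or supernatant replicate 2 or 3 (up to 0.0696) and Pabpc1 without exosomes replicate 3 (0.0675). Of the genes with other loci 12 of 19 were higher in exosomes and 0 lower, Spag16 by a log2 difference of 1.68 ± 0.61 (edgeR adjusted p = 0.0155) and Slc38a6 by 2.44 ± 0.51 (edgeR adjusted p = 2.8e-05). The Spag16 call was lost in 6 of 8 other settings, TMM and DESeq2 among them (up to 0.913), and that of Slc38a6 in 3 of 9 (up to 0.884). Tmem38b had 2493, 1118 and 1288 CPM in exosomes, against 517, 760 and 1137 CPM in supernatant, which overlap. Its log2 difference was 1.02 ± 0.43 (edgeR adjusted p = 0.0393) but -0.21 with TMM, -0.37 with mRNA-matching reads as library size and -0.35 with distinct inserts counted once, and the call was lost without exosomes replicate 1 or supernatant replicate 1 or 2 (up to 0.159).

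**Figure D5:**
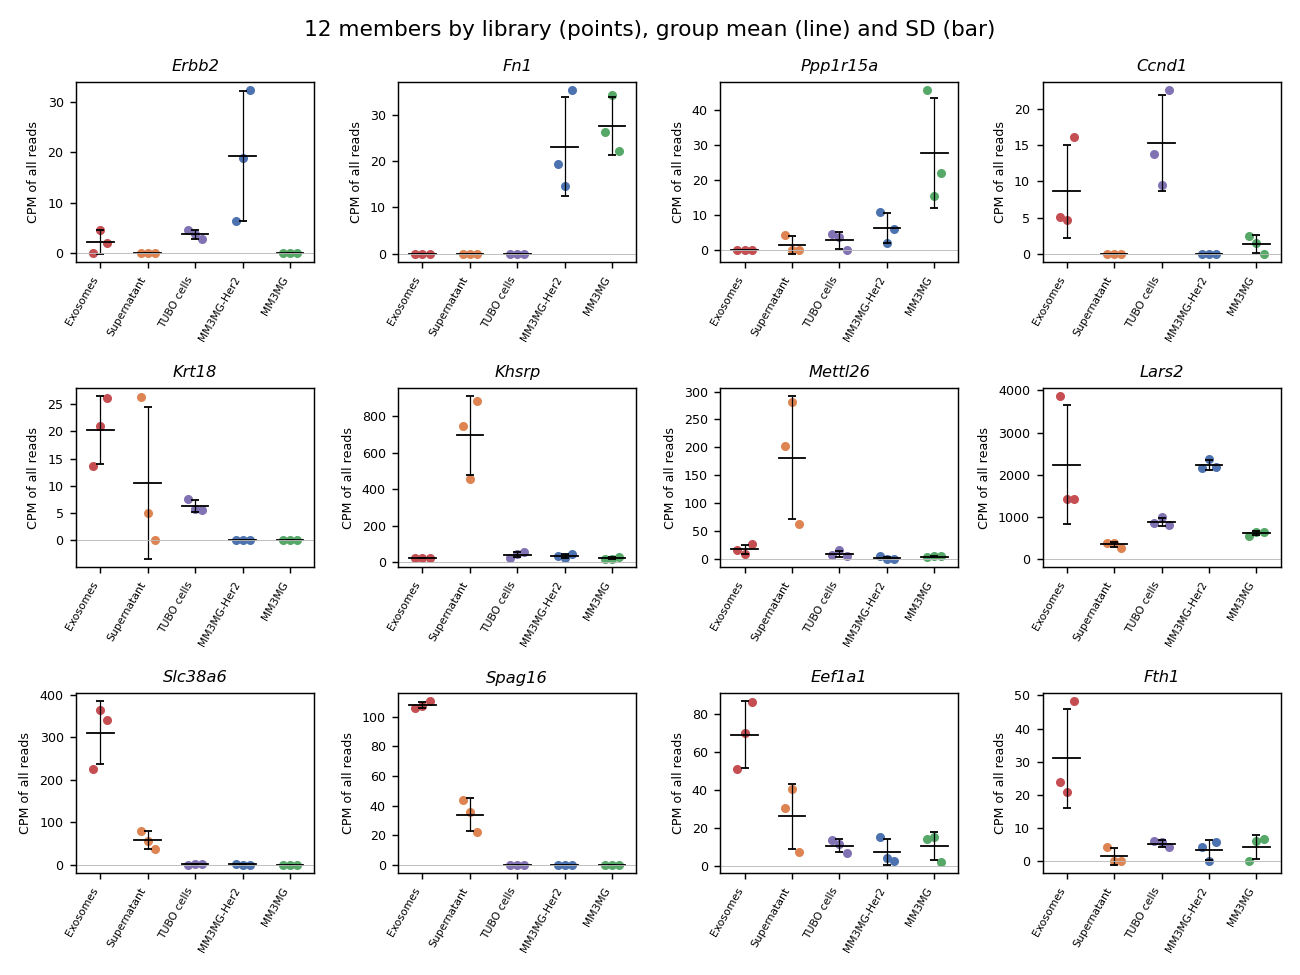
CPM of 12 members in each library (points), with the group mean (line) and SD (bar), each on a linear axis of its own. Erbb2 has reads in all MM3MG-Her2 libraries and 0 in MM3MG, Fn1 has 0 in all TUBO libraries, Khsrp and Mettl26 are highest in supernatant, and Slc38a6 and Spag16 are highest in exosomes.

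The pieces of spread genes also differed at their first letter between cells and medium. Adenine opened 47.1% of distinct inserts in exosomes and 52.7% in supernatant, against 30.6% in TUBO cells, 26.8% in MM3MG-Her2 and 32.7% in MM3MG. The exosome figure rests on 913 distinct inserts, that of supernatant on 93 and that of TUBO cells on 396. Mean insert length in these genes differed little, at 24.4 bases in exosomes, 23.8 in supernatant, 24.6 in TUBO cells, 24.6 in MM3MG-Her2 and 24.7 in MM3MG. In the genes under 30 reads adenine opened 39.4% of distinct inserts in exosomes, 50.3% in supernatant and 28.9% in TUBO cells. In the other kinds the order differed. In that order of groups it opened 36.9%, 18.75% and 29.7% in the genes with reads in a short stretch. With other loci it was 26.7%, 28.7% and 29.0%, and near structured RNA 12.9%, 14.3% and 17.2%. All these values pool the 3 libraries of a group and were not tested.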

How the data were processed

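Small RNA libraries of 15 samples in 5 groups of 3 were analysed. The deposited files hold, per the values in them, a count of reads for each distinct insert sequence, with adapters removed by the authors; the sources used here name no trimming tool, aligner or genome build. Inserts of 22 bases or more were matched exactly to GENCODE M21 transcripts (GRCm38), with uncalled bases as mismatches, and promoter sequences came from RefSeq. The 12 members with most reads, the 5 largest rises and falls per comparison without overlap, members of fixed lists, genes at the 30-read limit and Erbb2, Pgr and Esr1 were to be named. The members and lists were chosen with earlier results of these data known, and the 4 kinds of gene after their values were seen.

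Counts per gene entered edgeR 4.0.16 (R 4.3.3, robust quasi-likelihood fit, all reads as library size, 20 or more reads over the 9 libraries of the fit), with Benjamini-Hochberg adjustment at 0.05. One fit held the 9 cell libraries and another the 9 TUBO libraries. Shares were compared by exact permutation tests in scipy 1.17.1, and near matches were found with edlib 1.3.9.post1. Alternatives were TMM, mRNA-matching reads as library size, DESeq2 1.42.0, other filters, a length of 26 bases, other ways to count inserts, a replicate block and each library left out. The mRNA-matching reads used for TMM and as library size were those on single genes. The scripts were tested on simulated data. Totals ran from 196152 to 710902 reads, and intervals and floors (3 reads) cover counting error only. RefSeq's tRNA positions (GRCm38.p6) were set beside the members' inserts after their values were seen; sequences of tRNA, 45S rRNA, repeats, rat and cattle were not used here. Values of a few genes are not reported here, though counts and sums include them.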

Additional observations from a re-analysis of the deposited data

Results flagged for a closer look

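Inserts that matched a protein-coding transcript in antisense alone, which no comparison above uses, made up 0.205% of reads in TUBO exosomes, above the other groups. The exosome libraries had 0.200%, 0.254% and 0.163%. The means were 0.0806% in supernatant, 0.0536% in TUBO cells, 0.0253% in MM3MG-Her2 and 0.0188% in MM3MG, and no library of these groups reached the lowest exosome library. Such inserts had 5253 reads in all. Per 100 sense reads without Tmem38b and Lars2 they came to 12.2 in exosomes, 12.4 in supernatant, 11.6 in TUBO cells, 7.26 in MM3MG-Her2 and 8.16 in MM3MG.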

How the results depend on the processing

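The share of reads matching mRNA changed sign in some settings. MM3MG-Her2 minus MM3MG was -0.00736 points with inserts of 26 bases or longer and -0.000812 with inserts in other genes left out. Exosomes minus cells was -0.234 with inserts of 26 bases or longer, -0.208 with inserts in other genes left out and -0.384 with distinct inserts counted once, and supernatant minus cells was 0.188 without Tmem38b and Lars2, a setting chosen after seeing the data. The difference in the 3' UTR share, which covers inserts in single genes only, also changed sign. It became 12.3 (distinct inserts) and 26.5 (without those genes) for exosomes minus cells, and 9.60 and 7.996 for supernatant minus cells. Leaving out each library gave -0.0019 to 0.384 points for MM3MG-Her2 minus MM3MG, 0.0418 to 0.428 for TUBO cells minus MM3MG, 0.909 to 0.950 for exosomes minus cells, -0.418 to -0.343 for supernatant minus cells and 1.28 to 1.35 for exosomes minus supernatant. For the 3' UTR share the ranges were -6.61 to -2.70, -12.8 to -8.93, -10.8 to 0.152, -23.3 to -21.8 and 11.7 to 22.6 in that order.

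Counts of genes called moved as follows. For MM3MG-Her2 against MM3MG (3), filterByExpr and inserts of 26 bases or longer gave 1 each. For TUBO cells against MM3MG (15), DESeq2 gave 8, filterByExpr 3, inserts of 26 bases or longer 2 and distinct inserts 8. For exosomes against cells (73), DESeq2 gave 39, filterByExpr 24, inserts of 26 bases or longer 14, leaving out leading inserts 47, leaving out inserts in other genes 39 and distinct inserts 35. For supernatant against cells (36), a filter of 5 reads gave 17, filterByExpr 15, inserts of 26 bases or longer 6, leaving out leading inserts 18, leaving out inserts in other genes 20 and distinct inserts 22. For exosomes against supernatant (52), TMM gave 12, mRNA-matching reads as library size 13, DESeq2 15, a filter of 5 reads 28, filterByExpr 23, inserts of 26 bases or longer 11 and leaving out inserts in other genes 28. Without each library the counts were 2 to 8, 10 to 16, 66 to 71, 19 to 26 and 44 to 51 in that order. Lars2 in exosomes against cells became -0.034 with TMM, -0.47 with DESeq2 and -0.68 with distinct inserts, Krt18 there became -0.059 with DESeq2, and Tmem38b in exosomes against supernatant became -0.21, -0.37 and -0.35 with TMM, mRNA-matching reads and distinct inserts. The cause was not tested.

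Same-numbered libraries did not deviate together in every pair (correlations from -0.207 to 0.352), so the numbers were not taken as pairs. With the replicate block the counts were 5, 16, 71, 22 and 48 in the order above. Depth limits genes of few reads, since 3 reads over a group are 1.59 CPM in TUBO cells and 4.30 CPM in supernatant.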
